A study of Mus musculus with 18 samples.

Results

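The mitochondrial respiratory chain passes electrons from NADH and succinate to oxygen through complexes I to IV, and complex V uses the proton gradient they build to make ATP. Most of its subunits are encoded in the nucleus, and several exist as paralogues whose use differs between tissues, such as the muscle and the ubiquitous forms of cytochrome c oxidase subunits. Granule neuron progenitors (GNPs), the proliferating cells of the postnatal cerebellum, are known for a strongly glycolytic metabolism under Sonic hedgehog, and medulloblastoma of the hedgehog group arises from them. The nuclear-encoded subunits described here are the 74 genes of 19057 with a named probe whose symbol starts as those of the Nduf, Sdh, Uqcr, Cox and Atp5 subunit families and fits their numbering. The rule uses symbols only, although it was set with earlier results of these data known. Of these genes, 34 belong to complex I (NADH dehydrogenase), 4 to complex II (succinate dehydrogenase), 7 to complex III (cytochrome c reductase), 13 to complex IV (cytochrome c oxidase) and 16 to complex V (ATP synthase), and they lie on 19 chromosomes with 3 on the X. Where a gene had several probes, the one with the highest mean over all arrays stood for it. Subunits whose symbols the rule does not cover were kept as a separate list.

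The series comprised 18 arrays (Illumina MouseWG-6 v2, a bead array of long oligonucleotide probes), each with RNA of 1 sample. Of these, 1 held a medulloblastoma (MB) of an NdpKO;Ptch+/- mouse and 1 an MB of a Ptch+/- mouse, and 4 each held GNPs of NdpKO;Ptch+/-, Ptch+/-, NdpKO and wild-type mice. NdpKO is a germline lacZ knockout of the X-linked Norrin gene Ndp, with male Ndp-/y mice used, and Ptch+/- mice carry 1 functional copy of the hedgehog receptor gene Ptch1. GNPs were purified from cerebella at postnatal day 6 on a percoll gradient with pre-plating. Tumour mice were followed until advanced symptoms according to the methods, although the age label of the tumours also reads postnatal day 6, so age, purification and tumour growth cannot be told apart in a comparison of tumours with GNPs. The labels give C57Bl/6 for wild-type and Ptch+/- mice and a mixed background for NdpKO mice, and give none for NdpKO;Ptch+/- mice except for 1 array, NdpKO;Ptch+/- replicate 2. That array carries the labels of NdpKO in 2 other fields, and it was grouped by its title. By the methods, controls with Ndp were of both sexes and came from the same breeding cohort. Loss of Ndp, strain and sex cannot be told apart in comparisons of GNPs with and without Ndp. Values are log2 intensities after quantile normalization, which gives every array the same median of 4.13. Values near 4 are background, and level 5 is used here as a limit near it. As a check of the labels, Ptch1 on the brighter of its probes averaged 8.06 in NdpKO;Ptch+/-, 7.83 in Ptch+/-, 8.80 in NdpKO and 8.63 in wild-type GNPs (n = 4 each). The difference of Ptch+/- from wild type was -0.80 ± 0.10 (SE, limma, adjusted p = 0.0040), and those of NdpKO;Ptch+/- from NdpKO (-0.73, adjusted p = 0.078) and from wild type (-0.57, adjusted p = 0.083) did not pass. Ptch1 lay at 7.01 in the NdpKO;Ptch+/- tumour and at 8.69 in the Ptch+/- tumour, above the wild-type mean. The Ndp probe lay at background on all arrays and checks nothing. For the array with disagreeing labels, a list of 7 male germ cell markers, 1 with a mean of at least 5, separated the groups by their Ptch label. Its summed linear intensity was 992 to 1726 on the 4 NdpKO;Ptch+/- arrays and 1224 to 1565 on the Ptch+/- arrays. It was 121 to 122 in both NdpKO and wild-type GNPs, so NdpKO;Ptch+/- replicate 2 lay with the arrays labelled Ptch+/-.

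Of the 74 subunit genes, 62 had a mean of at least 5, with 31 in complex I, 3 in complex II, 6 in complex III, 7 in complex IV and 15 in complex V. The other 12 lay below 5 on all 18 arrays, and no fold is given for them. They were Ndufb4, Ndufb11 and Ndufs1 of complex I, Sdha, Uqcrfs1, Cox6a2, Cox6b2, Cox7b, Cox7b2, Cox8b and Cox8c, and Atp5md of complex V. Among these, Ndufs1, the flavoprotein gene Sdha and the Rieske protein gene Uqcrfs1 encode core subunits that respiring cells use, so a probe at background says nothing of whether the gene was expressed. Cox6a2 and Cox8b are muscle isoforms, and Cox6b2, Cox7b2 and Cox8c are testis isoforms. The ubiquitous counterparts Cox6a1 and Cox6b1 lay well above background, with means over the arrays of 13.20 and 13.54, while Cox7b, that of Cox7b2, was itself among the 12. Of the 10 striated muscle markers examined, 9 had a mean below 5.

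Promoters are shown for 5 genes that were lower in the tumours, because the factors NRF1 and GABP are known to act at many respiratory chain promoters. The windows run over the 250 bases before the transcription start, 5′ to 3′ on the strand of the gene, from RefSeq on GRCm38.p6. Capitals mark matches, on either strand, to the NRF1 letters GCGCATGCG, to the same letters with 1 free base (GCGCANGCG, which takes in the first) and to the ETS letters CCGGAAG bound by GABP. Ndufa11, Cox6a1 and Atp5g2 are shown because they hold the first form before the start (Uqcrc1, also lower in the tumours, holds it only after the start and is not shown), and Ndufv3 and Atp5pb because their tumour differences were the lowest called in complexes I and V.
Ndufa11, chr17:56717512-56717761, plus strand: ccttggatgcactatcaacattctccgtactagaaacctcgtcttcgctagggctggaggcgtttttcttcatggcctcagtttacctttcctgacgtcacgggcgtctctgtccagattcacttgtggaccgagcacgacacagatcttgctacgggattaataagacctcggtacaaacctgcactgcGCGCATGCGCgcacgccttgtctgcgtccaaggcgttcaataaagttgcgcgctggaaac
Cox6a1, chr5:115348959-115349208, minus strand: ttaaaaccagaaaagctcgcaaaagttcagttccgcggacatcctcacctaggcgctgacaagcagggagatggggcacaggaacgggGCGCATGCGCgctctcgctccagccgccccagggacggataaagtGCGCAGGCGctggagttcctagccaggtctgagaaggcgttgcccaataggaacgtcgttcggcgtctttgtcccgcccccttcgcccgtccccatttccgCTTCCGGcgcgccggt
Atp5g2, chr15:102671048-102671297, minus strand: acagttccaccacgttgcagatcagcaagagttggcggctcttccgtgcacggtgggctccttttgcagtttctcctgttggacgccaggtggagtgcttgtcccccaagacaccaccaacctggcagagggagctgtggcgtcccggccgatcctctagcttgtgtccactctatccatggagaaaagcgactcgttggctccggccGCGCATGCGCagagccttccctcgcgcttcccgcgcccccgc
Ndufv3, chr17:31519865-31520114, plus strand: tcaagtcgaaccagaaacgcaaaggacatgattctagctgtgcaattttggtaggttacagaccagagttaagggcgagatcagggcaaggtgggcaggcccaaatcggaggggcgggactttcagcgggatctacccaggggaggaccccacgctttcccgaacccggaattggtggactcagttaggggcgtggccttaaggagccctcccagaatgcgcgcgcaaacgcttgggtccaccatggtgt
Atp5pb, chr3:105959264-105959513, minus strand: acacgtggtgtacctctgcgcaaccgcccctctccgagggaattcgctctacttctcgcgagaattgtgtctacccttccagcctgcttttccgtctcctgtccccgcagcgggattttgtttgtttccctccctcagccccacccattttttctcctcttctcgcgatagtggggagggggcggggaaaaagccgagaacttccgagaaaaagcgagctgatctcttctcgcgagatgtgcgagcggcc
No such match lies in the windows shown for Ndufv3 and Atp5pb. Over windows of 300 bases, which add 50 bases after the start, 63 of the 74 genes were matched by gene ID. Of these, 8 (12.7%) held GCGCATGCG, against 1.95% of 27025 genes in the table. The letters with 1 free base were held by 19 (30.2%), against 7.03% of all genes, and CCGGAAG by 16 (25.4%), against 9.93%. AAGATGGCG, letters bound by YY1, were held by 7 genes (11.1%), against 1.64% of all genes. The TATA letters TATAAA were held by 8 genes (12.7%), against 15.7%. Such matches describe the letters only and were not tested as sites.

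In the progenitors, expression of the subunits differed little between the 4 genotypes. The mean level over the 62 genes was 11.26 ± 0.03 in NdpKO;Ptch+/-, 11.27 ± 0.03 in Ptch+/-, 11.26 ± 0.05 in NdpKO and 11.25 ± 0.08 in wild-type GNPs (SD, n = 4 each). Over all 16 GNP arrays it ran from 11.15 to 11.32. The mean of complex I was 11.27 ± 0.03 in NdpKO;Ptch+/-, 11.27 ± 0.02 in Ptch+/-, 11.28 ± 0.04 in NdpKO and 11.26 ± 0.06 in wild-type GNPs. That of complex V was 11.70 ± 0.04 in NdpKO;Ptch+/-, 11.66 ± 0.05 in Ptch+/-, 11.69 ± 0.07 in NdpKO and 11.65 ± 0.08 in wild-type GNPs. The 4 genotypes overlapped in both, and likewise in complexes II, III and IV. Complex II, with 3 genes above background, had the widest range, from 8.57 to 9.36. In samples of many cells such as these, fewer cells of a type and less RNA per cell cannot be told apart.

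**Figure D1:**
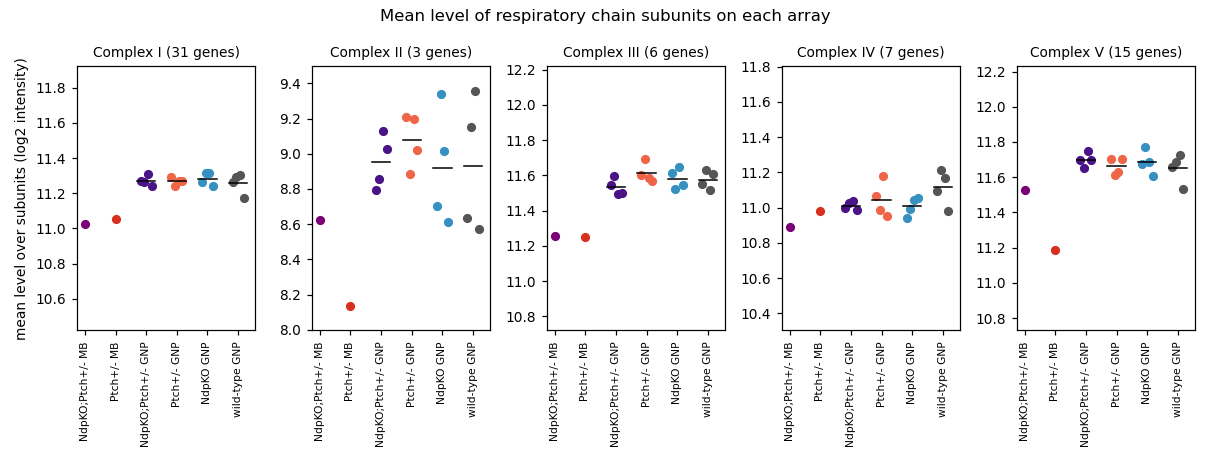
Mean log2 intensity (vertical axis) over the subunit genes of each complex with a mean of at least 5, with 1 point per array and the arrays grouped by tissue and genotype along the horizontal axis; black bars are means of 4 arrays. The points of the 4 GNP genotypes overlap in every complex, and both tumours lie below all 16 GNP arrays in complexes I, III and V, the NdpKO;Ptch+/- tumour in complex V only just.

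Ptch+/- GNPs were set against wild-type GNPs to ask what the loss of 1 Ptch1 allele does to the subunits. None of the 74 was called at an adjusted p below 0.05 by limma, where 1.09% of the 45281 probes were, and 6 had an unadjusted p below 0.05. The median difference was 0.019 on the log2 scale over all 74 genes, against 0.00028 over all probes. Among the 62 genes above background, the 95% confidence interval lay within 0.5 of 0 for 53 and within 1 (a 2-fold change) for 58. The gene nearest to a call was Ndufa12, an accessory subunit of complex I. It was measured at 11.34, 11.45, 11.50 and 11.27 in Ptch+/- GNPs, against 11.63, 11.69, 11.51 and 11.70 in wild-type GNPs. The groups did not overlap, and the difference was -0.24 ± 0.06 (SE, limma, adjusted p = 0.068).

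Groups without overlap between Ptch+/- and wild type were found for 4 genes. Ndufa12 and Atp5g2 lay below wild type, 2 of 74 where 4.48% of all probes and 10.3% of those with a mean of at least 5 did. Cox6b1 and Atp5b lay above it, 2 of 74 where 4.79% of all probes and 11.6% of the brighter ones did. Atp5g2, which encodes the c subunit of the rotor ring of ATP synthase, was measured at 10.19, 10.05, 9.89 and 10.16 in Ptch+/- GNPs, against 10.51, 10.23, 10.51 and 10.23 in wild-type GNPs (difference -0.30 ± 0.09, limma, adjusted p = 0.15). Its paralogue Atp5g3, which encodes the same mature protein, had a difference of opposite sign, 0.14 ± 0.05 (limma, adjusted p = 0.21). Atp5b, the catalytic beta subunit, was measured at 14.99, 15.01, 15.04 and 15.11 in Ptch+/- GNPs, against 14.86, 14.94, 14.93 and 14.93 in wild-type GNPs (difference 0.13 ± 0.04, limma, adjusted p = 0.20). The highest and lowest differences in the other complexes were those of Sdhd (0.50) and Sdhc (-0.036), of Uqcrq (0.25) and Uqcrc2 (-0.084), and of Cox6b1 (0.16) and Cox7a1 (-0.49), and in complex I the highest was that of Ndufb2 (0.30). None passed the test.

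NdpKO;Ptch+/- GNPs were set against Ptch+/- GNPs for the difference that goes with loss of Ndp where 1 Ptch1 allele is lost. None of the 74 genes was called, where 0.0155% of all probes were, and 5 had an unadjusted p below 0.05. The median difference was 0.0016, and the 95% confidence interval lay within 1 of 0 for 57 of the 62 genes above background. Atp5g2 was the single gene without overlap between these groups, 1 of 74 above where 2.3% of all probes were, with 0 of 74 below where 2.65% were. It was measured at 10.20, 10.28, 10.40 and 10.23 in NdpKO;Ptch+/- GNPs, against 10.19, 10.05, 9.89 and 10.16 in Ptch+/- GNPs (difference 0.20 ± 0.09, limma, adjusted p = 0.56). The groups only just failed to overlap. The lowest difference in complex I was that of Ndufb2 (-0.61 ± 0.52) and the highest that of Ndufb10 (0.65 ± 0.27). In the other complexes the lowest and highest were Sdhd (-0.23) and Sdhc (-0.060), Uqcrq (-0.38) and Uqcrc1 (0.012), Cox7a2 (-0.29) and Cox7a1 (0.21), and Atp5mpl (-0.083) and Atp5k (0.28).

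The remaining comparisons of GNPs also had 0 calls among the 74 genes. NdpKO against wild type had 5 genes at an unadjusted p below 0.05 and a median of 0.0058, where 0.307% of all probes were called. NdpKO;Ptch+/- against NdpKO had 2 such genes and a median of -0.0034, where 0.00442% were called. NdpKO;Ptch+/- against wild type had 5 such genes and a median of -0.0045, where 0.0508% were called. Groups failed to overlap for Uqcrfs1 in NdpKO against wild type (1 of 74 above and 0 below, where 2.9% and 2.57% of probes were), although this gene lay at background on every array. In NdpKO;Ptch+/- against NdpKO they did so for Ndufa6 and Atp5mpl (1 of 74 above and 1 below, where 1.16% and 1.4% of probes were), with differences of 0.16 and -0.12 (limma, adjusted p = 0.87 for both). In NdpKO;Ptch+/- against wild type they did so for Uqcrfs1 and the delta subunit gene Atp5d (1 of 74 above and 1 below, where 1.83% and 1.8% of probes were), and Atp5d differed by -0.11 (limma, adjusted p = 0.83). These comparisons share their arrays. The interaction asks whether the difference between GNPs without and with Ndp is the same in the Ptch+/- and the wild-type background. It had 5 such genes and a median of -0.013, where 0.495% of probes were called. Its lowest adjusted p was that of Atp5g2, with a value of 0.44 ± 0.13 (limma, adjusted p = 0.14).

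**Figure D2:**
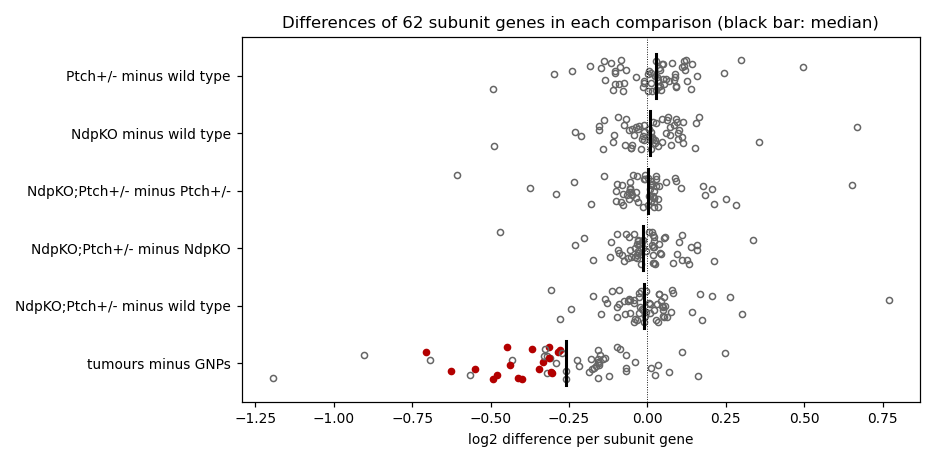
Log2 difference (horizontal axis) of each of the 62 subunit genes with a mean of at least 5, with 1 row per comparison. Filled points are genes with an adjusted p below 0.05 and black bars are medians, which lie near 0 in the 5 comparisons of GNPs and at -0.26 for the tumours.

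The subunit genes were also less variable than most probes with a mean of at least 5, as were the cytosolic ribosomal protein genes. In the comparison of Ptch+/- with wild-type GNPs the median SE was 0.076 over the 62 subunit genes and 0.067 over 55 ribosomal protein genes. It was 0.146 over all probes with a mean of at least 5. The range over the 16 GNP arrays had a median of 0.40 over the 62 genes, against 0.83 over all 10855 probes with a mean of at least 5. The gap was smaller among bright genes. Among genes with a mean of at least 10 the median range was 0.36 for the subunits and 0.47 for all such probes. The narrowest was Atp5l, subunit g of ATP synthase, which lay between 13.53 and 13.65 on all 16 arrays. The first principal component of the GNP arrays, with 35.0% of the variance over probes of at least 5, had the 4 Ptch+/- arrays and the 4 wild-type arrays on opposite sides, with 3 of 4 NdpKO and 1 of 4 NdpKO;Ptch+/- arrays on the side of Ptch+/-. The subunits followed it weakly. Their absolute correlation with it had a median of 0.19 over 16 arrays, against 0.43 for all probes of at least 5, and 1 of 62 exceeded 0.7, against 20.6% of those probes. Those probes were not matched to the subunits for brightness or spread, and 50 of the 62 subunits had a mean of at least 10.

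Ranges over 1 among the GNP arrays were seen for 9 genes, Ndufb2, Ndufb9, Ndufb10, Sdhd, Cox6c, Cox7a1, Atp5a1, Atp5e and Atp5k. Ndufb9, an accessory subunit of the membrane arm of complex I, had the widest. It was measured at 7.22, 6.54, 7.53 and 7.33 in NdpKO;Ptch+/-, 7.37, 6.61, 6.80 and 7.47 in Ptch+/-, 6.77, 8.23, 7.04 and 6.38 in NdpKO and 7.35, 7.31, 7.83 and 5.30 in wild-type GNPs. All 4 genotypes overlapped, and the lowest array was wild-type replicate 4. The same array was the lowest for Ndufb2, Sdhd, Atp5e and Atp5k. Atp5e, the epsilon subunit of the ATP synthase stalk, lay between 5.60 and 7.09 in the 3 mutant genotypes, against 6.08, 6.76, 6.85 and 5.18 in wild-type GNPs. Across the 16 arrays Ndufb9 had a correlation of 0.83 with Atp5e, 0.72 with both Ndufb2 and Atp5k, 0.69 with Cox6c and 0.68 with Sdhd. These points share their arrays, and over the 4270 other probes with a mean of at least 5 and a range over 1 the median correlation with Ndufb9 was -0.0051, with 1.57% over 0.7. The correlations of the other 3 were 0.41 for Atp5a1, -0.21 for Cox7a1 and -0.0017 for Ndufb10.

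Ndufb10, another accessory subunit of complex I, had 2 probes that ran against each other. On the brighter it was measured at 9.36, 9.65, 9.61 and 9.31 in NdpKO;Ptch+/- and 9.46, 9.58, 9.45 and 9.04 in NdpKO GNPs. It was measured at 9.70, 8.45, 8.37 and 8.82 in Ptch+/- and at 8.47, 8.46, 8.61 and 9.32 in wild-type GNPs. Thus 3 of 4 arrays of each genotype with Ndp lay below all 8 arrays without it, with Ptch+/- replicate 1 and wild-type replicate 4 as the exceptions. The differences were 0.67 ± 0.27 for NdpKO against wild type (limma, adjusted p = 0.38) and 0.65 ± 0.27 for NdpKO;Ptch+/- against Ptch+/- (limma, adjusted p = 0.53), and neither passed the test. The dimmer probe had differences of -0.64 and -1.12 in the same comparisons (limma, adjusted p = 0.78 and 0.64). The correlation between the 2 probes over the 16 arrays was -0.52, so they give no common direction for this gene.

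**Figure D3:**
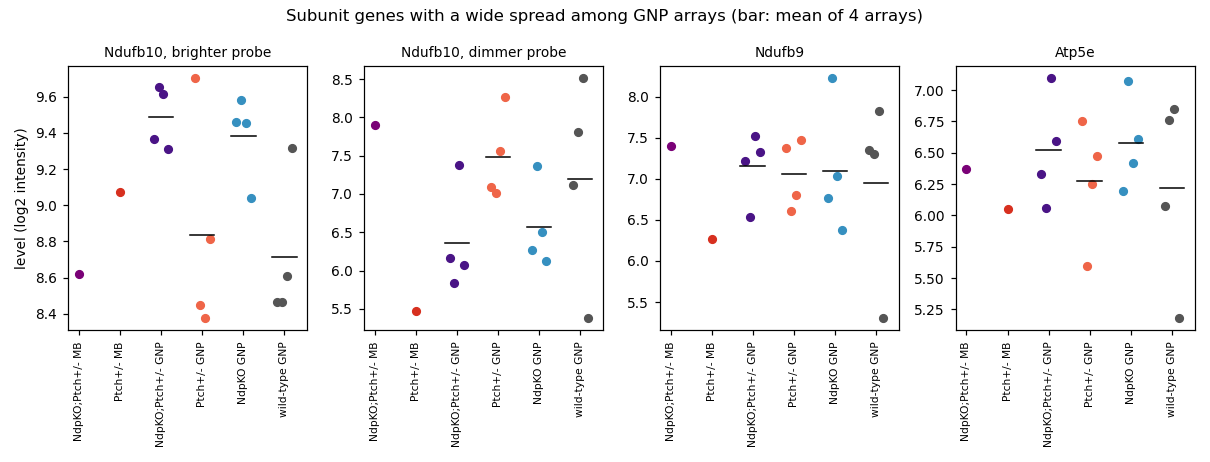
Level on each array (vertical axis, log2 intensity) of both Ndufb10 probes, Ndufb9 and Atp5e, by tissue and genotype, with bars at means of 4 arrays. The means of the brighter Ndufb10 probe are higher in GNPs without Ndp and those of the dimmer probe lower, and wild-type replicate 4 is the lowest GNP array for Ndufb9 and Atp5e.

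The tumours were set against the 8 GNP arrays of the same genotypes, NdpKO;Ptch+/- and Ptch+/-, to ask how the subunits differ in medulloblastoma. Of the 74 genes, 18 were lower and 0 were higher at an adjusted p below 0.05, and 31 had an unadjusted p below 0.05. Among all probes 14.7% were called, 6.06% lower and 8.61% higher. Bright probes changed more often, however. Among probes with a mean of at least 5, 22.7% were called lower and 15.2% higher, so the share of subunits that fell, 18 of 62 (29.0%), lay close to the share of all such probes that did. The shift of the whole group was small. Its median was -0.18 over the 74 genes and -0.26 over the 62, against -0.10 over all probes of at least 5, and 55 of the 62 differences were negative. The 55 cytosolic ribosomal protein genes, another large set of abundant transcripts, had a median of 0.033 with 3 higher and 1 lower. The test rests on 2 tumours of different genotype and takes their spread with that of the GNPs.

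**Figure D4:**
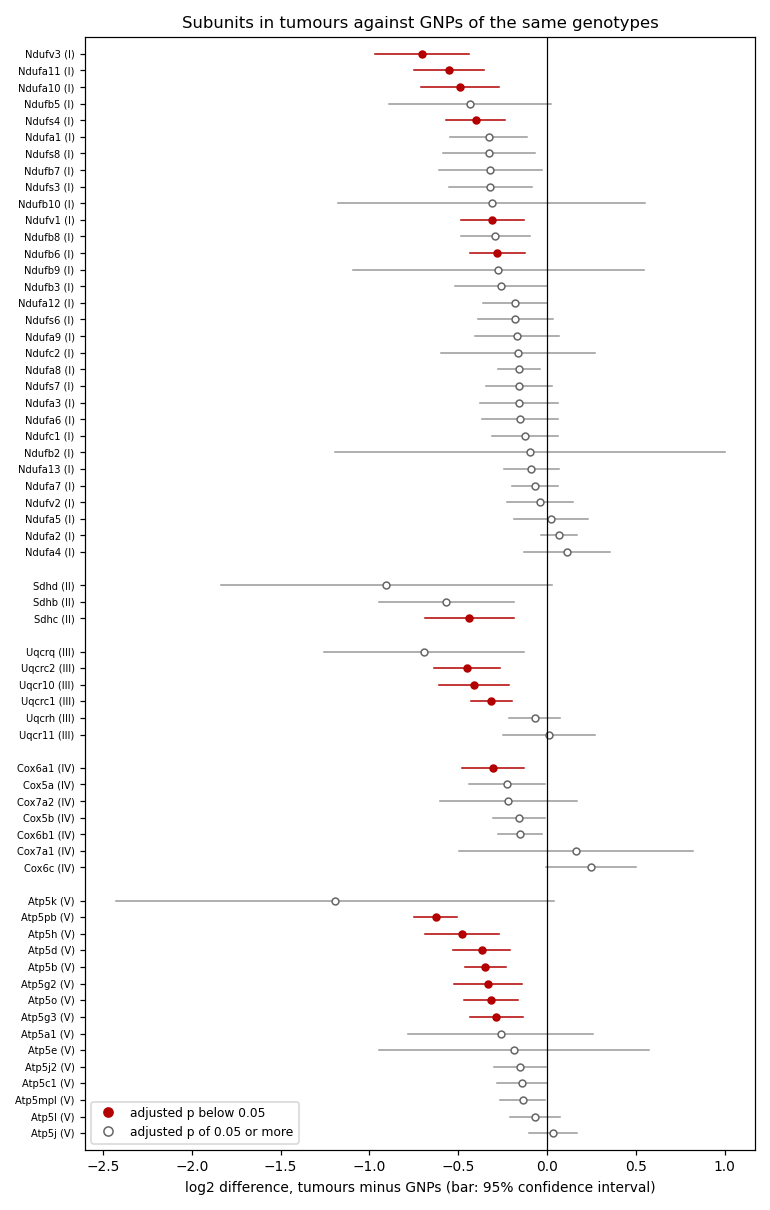
Log2 difference of each subunit gene with a mean of at least 5 (horizontal axis), the mean of both tumours minus GNPs of the same genotypes, with genes in rows grouped by complex; bars are 95% confidence intervals and filled points have an adjusted p below 0.05. All 18 filled points lie below 0, between -0.70 for Ndufv3 and -0.28 for Ndufb6, and 7 of them are genes of complex V.

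Of the genes above background, 19.4% were called lower in complex I, 33.3% in complex II, 50% in complex III, 14.3% in complex IV and 46.7% in complex V, beside the 22.7% of probes with a mean of at least 5. The complexes were not tested against each other. In complex I, 6 of 31 genes above background fell, Ndufv3, Ndufa11, Ndufa10, Ndufs4, Ndufv1 and Ndufb6. Ndufv3, an accessory subunit of the NADH-oxidising module, was measured at 11.31 in the NdpKO;Ptch+/- tumour and 11.46 in the Ptch+/- tumour. In GNPs it was measured at 12.20, 11.98, 11.91 and 12.24 in NdpKO;Ptch+/- and at 11.98, 12.14, 12.29 and 11.96 in Ptch+/-. Both tumours lay below every GNP array, and the difference of -0.70 ± 0.11 amounted to a 1.63-fold lower level (limma, adjusted p = 0.0043). A second probe for Ndufv3 gave -0.76 (limma, adjusted p = 0.0026). Ndufa11, a subunit of the membrane arm, was measured at 10.30 and 9.95 in the NdpKO;Ptch+/- and Ptch+/- tumours, against 10.56 to 10.78 in the 8 GNP arrays. The tumours again lay below, by -0.55 ± 0.08 (limma, adjusted p = 0.0036). The other 4 had differences of -0.49 for Ndufa10, -0.40 for Ndufs4, which is mutated in Leigh syndrome, -0.31 for the flavin-binding core subunit Ndufv1 and -0.28 for Ndufb6. Ndufs4 was not called when the probes of a gene were averaged. On each of its further probes the NdpKO;Ptch+/- tumour lay within the range of its own GNPs, while the Ptch+/- tumour lay below its own. At the upper end stood Ndufa4, now assigned to complex IV, with 0.11 ± 0.10 (limma, adjusted p = 0.62).

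All 4 Sdh genes of complex II are given whatever their values. Sdhc, a membrane anchor, was measured at 11.04 in the NdpKO;Ptch+/- tumour and 10.75 in the Ptch+/- tumour, against 11.13 to 11.47 in the 8 GNP arrays, and it fell by 0.44 on the log2 scale (SE 0.11, limma, adjusted p = 0.031). Sdhb, the iron-sulphur subunit, was measured at 9.92 and 9.27 in the NdpKO;Ptch+/- and Ptch+/- tumours, against 9.99 to 10.45 in the GNP arrays, with a difference of -0.57 ± 0.16 that did not pass (limma, adjusted p = 0.059). Sdhd, the other anchor, lay near background at 4.90 and 4.38 in the NdpKO;Ptch+/- and Ptch+/- tumours and spread from 4.73 to 6.17 in the GNP arrays (difference -0.90 ± 0.40, limma, adjusted p = 0.21). Sdha was at background throughout. Thus 1 of 3 genes passed the test, and the Ptch+/- tumour was the lower in all 3.

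In complex III, 3 of 6 genes above background fell. Uqcrc2, a core protein, was measured at 11.84 in the NdpKO;Ptch+/- tumour and 11.94 in the Ptch+/- tumour, against 12.27, 12.43, 12.26 and 12.39 in NdpKO;Ptch+/- and 12.29, 12.54, 12.33 and 12.23 in Ptch+/- GNPs. There was no overlap (difference -0.45 ± 0.08, limma, adjusted p = 0.0075). The other core protein gene Uqcrc1 had a difference of -0.31 ± 0.05 (limma, adjusted p = 0.0042), and Uqcr10, a small subunit, one of -0.41 ± 0.08 (limma, adjusted p = 0.015). Uqcrq had the lowest value of this complex at -0.69 ± 0.24 but did not pass (limma, adjusted p = 0.11), and Uqcr11 had the highest at 0.012.

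In complex IV, 1 of 7 genes above background fell, and 3 of 7 (Cox6a1, Cox5b and Cox6b1) when the probes of a gene were averaged. Cox6a1, the ubiquitous isoform of subunit VIa, was measured at 13.00 in the NdpKO;Ptch+/- tumour and 12.89 in the Ptch+/- tumour, against 13.15 to 13.45 in the 8 GNP arrays (difference -0.30 ± 0.08, limma, adjusted p = 0.033). A second probe for it gave -0.41 (limma, adjusted p = 0.0011). Cox6b1 had -0.15 (limma, adjusted p = 0.11) on the probe used and -0.30 (limma, adjusted p = 0.00047) on another. Of the subunit VIIa pair, the muscle isoform Cox7a1 was measured at 5.82 and 6.60 in the NdpKO;Ptch+/- and Ptch+/- tumours, against 5.42 to 6.48 in the GNP arrays, and the ubiquitous Cox7a2 at 7.67 and 7.78 in these tumours, against 7.66 to 8.39. Cox6c was the 1 subunit gene with both tumours above all 8 GNP arrays, at 10.70 in the NdpKO;Ptch+/- tumour and 10.59 in the Ptch+/- tumour, against 10.15 to 10.58 in these arrays, where 11.3% of all probes and 19% of the brighter ones did (difference 0.25 ± 0.11, limma, adjusted p = 0.21). It reached 11.19 in NdpKO and 11.17 in wild-type GNPs, so the tumours lay within the range of all 16.

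In complex V, 7 of 15 genes above background fell. They came from the peripheral stalk (Atp5pb, Atp5h and Atp5o), from the catalytic head and its central stalk (Atp5b and Atp5d) and from the c ring (Atp5g2 and Atp5g3). Atp5pb, subunit b of the peripheral stalk, had the lowest adjusted p of all 74 genes. It was measured at 10.60 in the NdpKO;Ptch+/- tumour and 10.65 in the Ptch+/- tumour. In GNPs it was measured at 11.21, 11.29, 11.20 and 11.36 in NdpKO;Ptch+/- and at 11.30, 11.28, 11.25 and 11.15 in Ptch+/-. The difference of -0.63 ± 0.05 was several times the spread of the GNP arrays and amounted to a 1.55-fold lower level (limma, adjusted p = 0.00012). A second probe gave -0.56 (limma, adjusted p = 0.00051). Atp5b was measured at 14.68 and 14.72 in the NdpKO;Ptch+/- and Ptch+/- tumours, against 14.94 to 15.11 in the GNP arrays (difference -0.35 ± 0.05, limma, adjusted p = 0.0025). The differences of the others were -0.48 for Atp5h, -0.37 for Atp5d, -0.33 for Atp5g2, -0.32 for the OSCP gene Atp5o and -0.29 for Atp5g3. Atp5g2 was the 1 called gene whose tumours overlapped the GNP range, with 10.01 in the NdpKO;Ptch+/- tumour and 9.67 in the Ptch+/- tumour, against 9.89 to 10.40. Atp5j, coupling factor 6, had the highest value of this complex at 0.034.

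**Figure D5:**
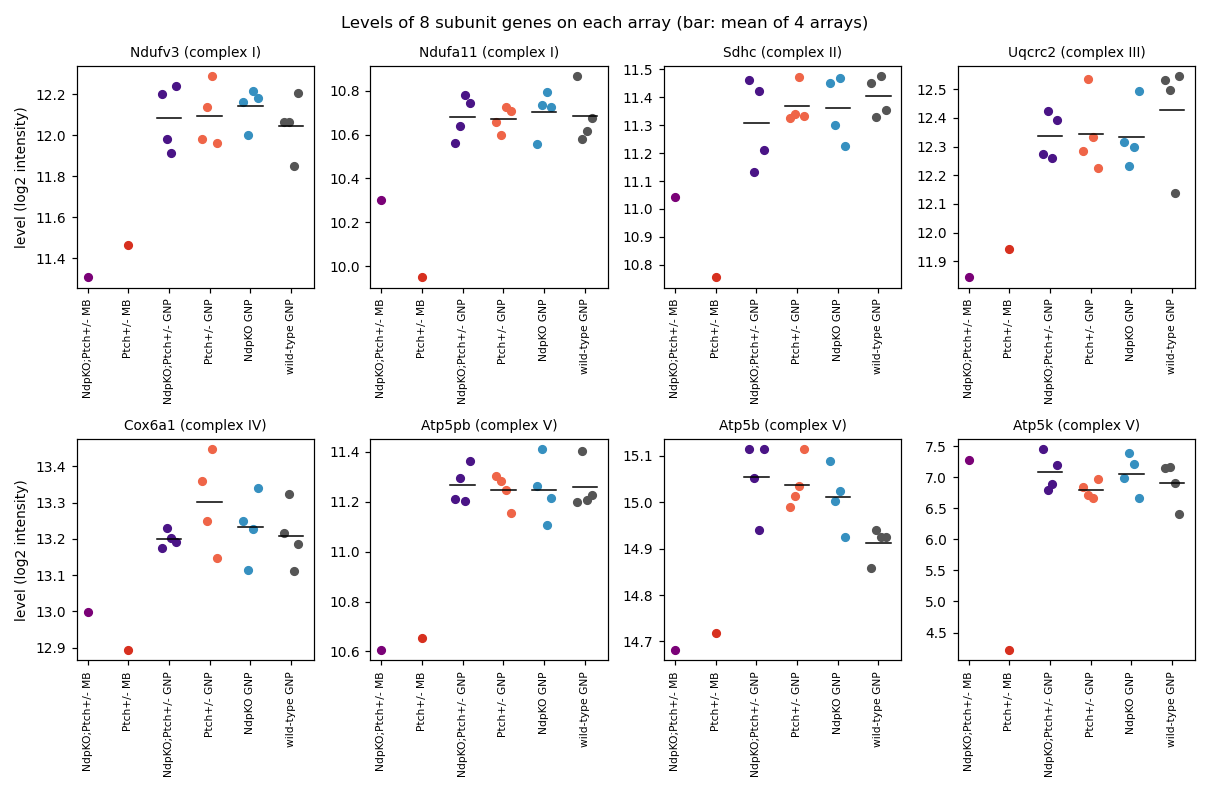
Level on each array (vertical axis, log2 intensity) of 8 subunit genes by tissue and genotype, with bars at means of 4 arrays. For the first 7 genes both tumours lie below all 16 GNP arrays, and for Atp5k only the Ptch+/- tumour does, at 4.21.

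Both tumours lay below all 8 GNP arrays of their genotypes for 27 of the 74 genes, where 11.8% of all probes and 28.2% of those with a mean of at least 5 did. Against all 16 GNP arrays this held for 21 genes, where 8.97% of all probes and 23.7% of the brighter ones did, and 16 of the 18 called genes were among them. The calls rest on the same tumours and on 8 of these arrays, so that overlap adds no support for them. The counts of 27 and 21 take in Uqcrfs1, which lay at background on every array, so they are not limited to brighter genes. Both tumours lay above all 16 for 0 of the 74, where 8.9% of all probes and 16.3% of the brighter ones did. A further probe with a mean of at least 5 was present for 6 of the called genes. All 8 such probes had a negative difference and 5 were called lower. Another 5 genes, Ndufa8, Ndufc1, Ndufs6, Cox5b and Cox6b1, were called lower on a further probe and not on the one used. Without the Ptch+/- tumour 8 genes were called, of which 7 were among the 18. Without the NdpKO;Ptch+/- tumour 16 were called, 15 lower and 1 (Cox6b2, near background) higher, of which 10 were among the 18. Under all 18 alternatives tried, not all of them different fits, 3 genes kept their call: Ndufa11, Atp5b and Atp5pb.

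The tumours differed from the GNPs in other cell types as well. Of 11 measured markers of microglia and leukocytes 9 were called higher in the tumours, where their summed linear intensity was 4259 to 8804, against 619 to 1055 in the 8 GNP arrays. Of 15 endothelial markers 4 were called lower and none higher, with sums of 2257 to 2518 in the tumours and 5187 to 12255 in the GNP arrays. Of 14 granule progenitor markers 3 were called higher and 1 lower, with sums of 31561 to 38063 in the tumours and 21177 to 28013 in the GNP arrays. Of 9 oligodendrocyte markers 5 were called lower and 2 higher, with sums of 7342 to 8610 in the tumours and 8795 to 17458 in the GNP arrays. Of 12 astrocyte and Bergmann glia markers 5 were called higher and 2 lower, with sums of 17914 to 32164 in the tumours and 10274 to 17165 in the GNP arrays. The sums of these glial lists did not overlap. Of 11 mural cell and fibroblast markers 4 were called lower and 1 higher, with sums of 677 to 1353 in the tumours and 1730 to 2535 in the GNP arrays. Of 9 Purkinje cell and interneuron markers 2 were called lower and 1 higher, and 3 had a positive difference. Their sums were nevertheless higher, 8881 to 9514 in the tumours and 6378 to 8271 in the GNP arrays. Markers of granule neuron differentiation, 5 of 16 called lower and 3 higher, overlapped, with sums of 24267 to 27172 in the tumours and 25042 to 33853 in the GNP arrays. Of 4 erythroid markers, 1 with a mean of at least 5, 1 was called lower and 0 higher. They summed to 976 to 1030 in the tumours and 4428 to 13594 in the GNP arrays. The part of these cells in the lower subunit levels was not tested.

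The tumours themselves were 1 array each, so their difference carries no test. The median over the 74 genes was 0.038 for the NdpKO;Ptch+/- tumour minus the Ptch+/- tumour, and 67 genes differed by less than 0.5. Of the 62 genes above background 55 did so, where 68.4% of all probes with a mean of at least 5 did. Differences of 1 or more were found for 3 genes. Atp5k, subunit e of ATP synthase, was measured at 7.28 in the NdpKO;Ptch+/- tumour and 4.21 in the Ptch+/- tumour, and between 6.40 and 7.45 in the 16 GNP arrays, so that the Ptch+/- tumour alone lay at background. Its second probe was at background on average. Ndufb9 was measured at 7.40 in the NdpKO;Ptch+/- tumour and 6.27 in the Ptch+/- tumour, and Ndufb2 at 4.93 in the NdpKO;Ptch+/- tumour and 6.39 in the Ptch+/- tumour, both within their ranges in GNPs. With 2 genes higher and 1 lower of 74, the shares were near the 1.73% and 1.79% of all probes that differed as much (5.53% and 5.03% of the brighter ones). The complex V mean was 11.53 in the NdpKO;Ptch+/- tumour and 11.19 in the Ptch+/- tumour, against 11.53 to 11.77 in the 16 GNP arrays. With Atp5k left out it was 11.83 in the NdpKO;Ptch+/- tumour and 11.68 in the Ptch+/- tumour, against 11.90 to 12.10 in the 16 GNP arrays, so the difference between the tumours was 0.15 without that gene and 0.34 with it. Of its 15 genes above background, 11 in the NdpKO;Ptch+/- tumour and 15 in the Ptch+/- tumour lay below the mean of the GNPs of the same genotype.

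Related genes outside the symbol rule were examined from lists, whose counts stand beside 6.06% of all probes called lower in the tumours and 8.61% called higher (22.7% and 15.2% of probes with a mean of at least 5). Of 6 further subunits measured, all 6 had negative tumour differences and 2 were called lower, cytochrome c1 (Cyc1) by -0.41 ± 0.11 (limma, adjusted p = 0.042) and the supercomplex factor Cox7a2l by -0.48 ± 0.12 (limma, adjusted p = 0.031). Cox4i1, the ubiquitous form of subunit IV, had -0.24 (limma, adjusted p = 0.052). Of 42 assembly factors 4 fell in the tumours, the complex I factor Ndufaf5 (-0.69), the complex III factor Ttc19 (-0.87) and the complex IV factors Surf1 (-0.61) and Cox11 (-0.26), and 2 rose, Sdhaf3 (0.88) and Coa7 (1.08), of which Cox11 and Coa7 lay near background in GNPs. None of 8 electron carriers was called. Of 16 genes of the pyruvate dehydrogenase and citrate cycle list 2 fell, Pdhb (-1.59) and Idh3b (-0.23). Of 15 regulators of mitochondrial biogenesis 3 rose, the PGC-1 related coactivator Pprc1 (1.63), the mitochondrial RNA polymerase Polrmt (0.66) and the helicase Twnk (1.30), and 1 fell, the GABP beta subunit Gabpb1 (-1.31). Pprc1 was measured at 8.91 and 9.47 in the NdpKO;Ptch+/- and Ptch+/- tumours, against 7.21 to 8.06 in the 8 GNP arrays, with no overlap.

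In GNPs the lists held a single gene called in more than 1 comparison. Coa3, an assembly factor for the first steps of complex IV, was measured at 11.39, 11.28, 11.26 and 11.37 in NdpKO;Ptch+/-, 11.54, 11.46, 11.61 and 11.65 in Ptch+/-, 11.48, 11.47, 11.45 and 11.46 in NdpKO and 11.21, 11.18, 11.23 and 11.20 in wild-type GNPs. Ptch+/- and NdpKO GNPs lay above wild type without overlap, and NdpKO;Ptch+/- GNPs lay between. The differences were 0.36 ± 0.04 for Ptch+/- against wild type (limma, adjusted p = 0.0018) and 0.26 ± 0.04 for NdpKO against wild type (limma, adjusted p = 0.018), and the interaction was -0.50 ± 0.05 (limma, adjusted p = 0.0044). Its correlation with the first principal component of the GNP arrays was 0.79 over 16 arrays. None of the 13 complex IV subunit genes was called in these comparisons. In the tumours Coa3 was measured at 11.10 (NdpKO;Ptch+/-) and 11.75 (Ptch+/-), with no call. Sdhaf3 also rose in Ptch+/- against wild-type GNPs, by 0.62 ± 0.12 (limma, adjusted p = 0.037).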

How the data were processed

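Total RNA of 16 GNP samples and 2 tumours was hybridised by the authors to Illumina MouseWG-6 v2 arrays. The deposited log2 values had been background-corrected and quantile-normalised by the authors with neqc of limma, and were used as they stand, with 45281 probes and 18 columns, each with a sample. An increase of all transcripts together cannot be seen after this normalization. The number of arrays limits the precision. Probes were named from the platform annotation. Of them 34885 had 1 symbol, 18 several and 10378 none, and only those with 1 symbol were used. All 74 genes were matched in RefSeq (GRCm38.p6).

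The members and the lists were chosen with earlier results of these data known, and level 5 was set after the values had been seen. With limma 3.58.1 in R 4.3.3, each GNP genotype got its own mean over 16 arrays. Tumours were compared with 8 GNP arrays, with a term for the Ndp genotype. Tests were two-sided, with empirical Bayes moderation and Benjamini-Hochberg adjustment over all 45281 probes, and a call is an adjusted p below 0.05. Arrays were taken as separate animals, as the study states for GNPs. Genes were named where they were called, where they were the highest or lowest of their complex above level 5 in the comparisons of Ptch+/- with wild type, NdpKO;Ptch+/- with Ptch+/- and tumours with GNPs, as paralogue sets and as Sdh genes. Genes with a GNP range over 1, groups without overlap or a single outlying tumour were named after their values were seen. The procedure was tested on simulated data. Alternatives were the replicate block, all 18 arrays in 1 fit, other placements of 1 array, moderation with trend, array weights, a filter at level 5, the mean of a gene's probes, centring of arrays and the removal of single arrays.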

Additional observations from a re-analysis of the deposited data

Results flagged for a closer look

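In 144 sets of 4 arrays of 1 genotype (31 subunit genes and 5 complex means, each in 4 genotypes), 5 had a single array far from the other 3. Chance alone gives such a gap in about 1 of 20 sets. Sdhc lay at 11.47 in Ptch+/- replicate 3, with 11.33 to 11.34 in the other arrays of that genotype. Atp5h lay at 11.55 in Ptch+/- replicate 4, with 11.23 to 11.28 in the others. In wild-type GNPs, Uqcrc2 lay at 12.14 in replicate 3 (12.50 to 12.54 in the others), Atp5pb at 11.40 in replicate 2 (11.20 to 11.23) and Ndufb10 at 9.32 in replicate 4 (8.46 to 8.61).

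The interaction of the Ndp and Ptch genotypes passed the test for 0 of the 74 subunit genes and for 1 gene of the related lists, Coa3, with -0.50 on the log2 scale (limma). No subunit gene had groups without overlap that ran in opposite directions in the 2 backgrounds.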

How the results depend on the processing

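Over the comparisons of GNPs the count of called subunit genes stayed at 0 under every alternative, except for Ptch+/- against wild type, where array weights gave 1 (Ndufa12) and leaving out single arrays gave 0 to 1 (Atp5g3, without wild-type replicate 4). Member medians there moved by less than 0.044, the SD between arrays of a genotype. In these comparisons the fit of all 18 arrays could change no call, because a tumour alone in its group adds nothing to the estimated spread. For the tumours the 18 calls became 7 with array weights, where the calls over all 45281 probes went from 6643 to 4378. They became 31 with each array centred, where 30237 of all probes were called. Of these 31, 25 were lower and the 6 higher ones lay near background. All other alternatives except the removal of single arrays gave 14 to 23. Leaving out single arrays gave 8 to 19, with 8 without the Ptch+/- tumour, where the lone tumour is assumed to vary like the GNPs. The tumour median of -0.18 became -0.26 over probes with a mean of at least 5 and -0.23 with the mean of a gene's probes. The cause of these shifts was not tested.

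Of the 324 repeats of the 18 calls 264 kept the call, 60 lost it and 0 changed sign. These repeats are not all separate. NdpKO GNPs are not in the tumour fit. Counting the array with disagreeing labels as NdpKO, leaving it out and removing NdpKO;Ptch+/- replicate 2 are therefore the same fit there. The difference of Ndufb10 between NdpKO;Ptch+/- and Ptch+/- GNPs turned to -0.24 with the mean of its 2 probes. The tumour differences of the 5 complex means moved by less than the spread between arrays under 2 alternatives added after the data were seen, centring and the mean of a gene's probes. With Atp5k left out, a further one added then, that of complex V became -0.26, against -0.32 with it.

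Replicate numbers did not pair the arrays. The 24 pairs with the same number had correlations of -0.35 to 0.48 (median -0.048), and 4 of 16 arrays correlated best with their own number. With replicate number as a block the count of called subunit genes was 0 in all 6 comparisons of GNPs, as it was without the block. Over all 45281 probes the block lowered the calls from 494 to 263 for Ptch+/- against wild type. For the interaction they went from 224 to 72, and for NdpKO;Ptch+/- against NdpKO they stayed at 2.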
